A study of Homo sapiens with 12 samples.

Results

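The binding of TDP43 to RNA was compared between P-KO and wild-type (WT) H9 cells, a human embryonic stem cell line long established in culture, across all transcripts and introns outside the chromosome 15 region described below. The members were all transcripts listed in at least 1 of the 4 TDP43 libraries, 34206 of the 50961 transcripts listed in the 12 libraries of the series. Each was identified by the Ensembl transcript that the deposited lists attach to a position. The method was iCLIP, in which ultraviolet light crosslinks proteins to RNA in living cells and reverse transcription stops at the crosslink, so that cDNA ends map contacts to single nucleotides. The irradiation was 400 mJ per square centimetre, and antibodies against TDP43, RBFOX2 (FOX2 here) or hnRNP M pulled down the bound RNA. Each protein had 2 WT and 2 P-KO libraries, called biological replicates in the series design.

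The source label of the P-KO cells reads H9 SPA PKO, and both genotypes are H9 cells without a further treatment. The allele, the number of clones and the cell passages are not given in the labels used here. The labels also do not say how the replicates were separated, so the p-values measure the spread between these libraries. Counts on chromosome 15, positions 25000001 to 26000000 of hg19, check the genotype label: that stretch held 1.32% and 0.929% of TDP43 window counts in WT against 0.0875% and 0.0687% in P-KO. It was left out of everything that follows, together with the mitochondrial genome and the ribosomal contig chrUn_gl000220.

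TDP43 is a mainly nuclear protein that binds RNA through a pair of RNA recognition motifs and prefers stretches rich in UG. It is known for binding deep inside long introns, for shaping splice site choice, and for keeping cryptic exons out of messenger RNA. SPA RNAs are long noncoding RNAs of the Prader-Willi region with a small nucleolar RNA at the 5′ end and a polyadenylated 3′ end. The comparison asks whether TDP43 contacts other RNAs differently in cells with little signal from that region.

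The deposited lists give, for single nucleotides, a whole-number count of at least 2. Overlapping listed positions repeat each other's counts, so positions were kept from the highest count downwards, at least 11 nt apart on a strand, and are called windows. After the regions named above were left out, the WT libraries held 198451 and 256603 window counts in 64638 and 90298 windows. The P-KO libraries held 170723 and 271202 window counts in 57100 and 96819 windows. The left-out regions took 4.49% and 9.33% of the WT counts and 1.09% and 7.34% of the P-KO counts, so replicate 2 had the larger loss in each genotype. Levels are given as CPM, the counts per 1000000 window counts of the library, where 1 count is worth between 3.69 and 5.86 CPM in the TDP43 libraries. The FOX2 libraries held 212678 and 274339 window counts in WT against 226863 and 622932 in P-KO, so raw FOX2 counts have to be read against these totals. A transcript that a list does not hold is called listed at 0 in that library, which reflects the limits of the lists and gives no fold. The transcript identifiers were not paired with gene names here, so features are named by identifier, intron number and hg19 position.

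TDP43 windows lay mostly in introns in both genotypes. Introns held 93.2% to 94.0% of the windows and 86.8% to 90.6% of the counts. The first intron of a transcript held 22.4% to 24.5% of the intron counts, the second 14.3% to 14.7%, the third 10.0% to 10.5%, and introns numbered 4 or higher 50.8% to 53.4%. The signal was spread over many transcripts. Ordered by count, 809 and 1007 transcripts made up 50% of the counts in the WT libraries, against 1000 and 990 in the P-KO libraries. The 10 highest transcripts of each library held 9.07% and 6.76% in WT against 5.66% and 6.47% in P-KO, so P-KO replicate 1 and WT replicate 1 mark the ends of that range.

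The highest level belonged to a stretch of 229 nt without an intron label, chr1:109642870-109643098 on the plus strand (ENST00000458748.1). It had 7849 and 8309 counts (WT) against 2954 and 7417 (P-KO). These were 3.96% and 3.24% of the WT libraries and 1.73% and 2.73% of the P-KO libraries, and the groups did not overlap. The log2 fold change of P-KO over WT was -0.76 (SE 0.37), and the transcript did not pass (adjusted p = 0.9997, edgeR quasi-likelihood test). Its 5 highest windows were also the 5 highest windows of the TDP43 data as a whole. The window at position 109642936 had 2019 and 1289 counts (WT) against 895 and 1153 (P-KO). The window at position 109642919 had 2496 and 602 counts (WT) against 1000 and 435 (P-KO), so replicate 1 was above replicate 2 in both genotypes. At position 109642897 the order was the opposite, with 546 and 1721 counts (WT) against 227 and 1486 (P-KO). FOX2 libraries had 397, 233, 83 and 229 counts in the same stretch (WT replicates 1 and 2, then P-KO replicates 1 and 2). In CPM these were 1867 and 849 in WT against 366 and 368 in P-KO, so FOX2 was also lower in both P-KO libraries.

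The second and sixth highest transcripts also had no intron label and lay near each other on chromosome 11, plus strand. ENST00000534336.1 (chr11:65268110-65273462) had 2352 and 1553 counts (WT) against 985 and 1405 (P-KO). In CPM these were 8952 ± 4101 in WT and 5475 ± 416 in P-KO (SD, n = 2), with a log2 fold change of -0.80 (SE 0.40, adjusted p = 0.9997 by edgeR), and the groups did not overlap. FOX2 counts on it were 788 and 623 in WT against 1829 and 3530 in P-KO. In CPM these were 3705 and 2271 against 8062 and 5667, higher in P-KO where TDP43 was lower. The interaction of protein and genotype had an unadjusted p of 0.00152 and an adjusted p of 0.708 by edgeR, so the difference did not pass. ENST00000501122.2 (chr11:65190406-65212661) had 767 and 878 TDP43 counts (WT) against 383 and 1245 (P-KO). There the 2 P-KO libraries stood on both sides of the WT libraries.

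**Figure D1:**
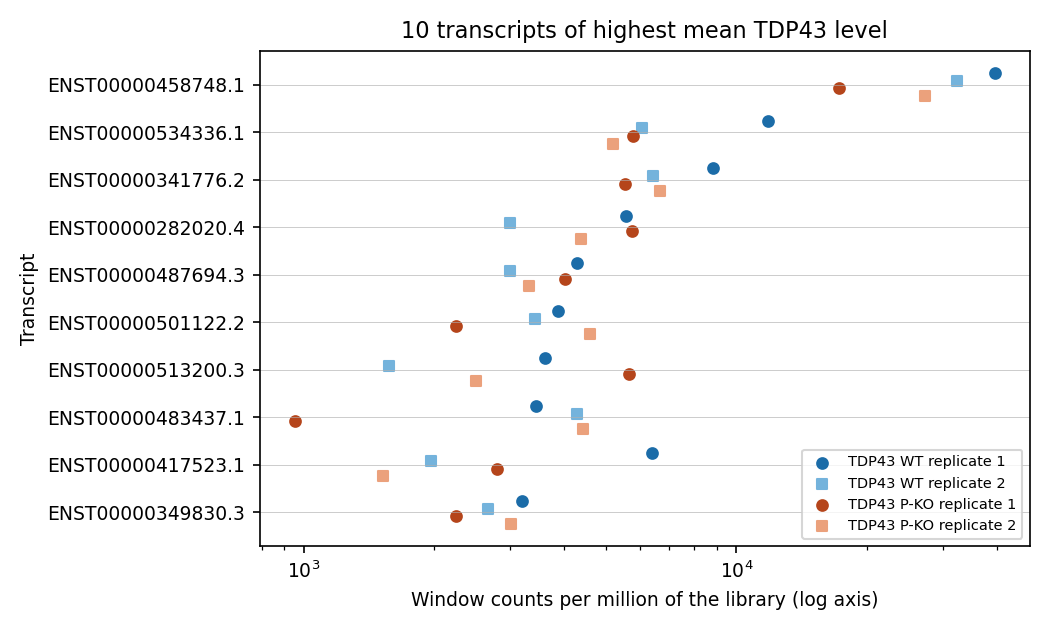
The 10 transcripts of highest mean TDP43 level, one row each, against CPM on a log axis; blue marks WT and red P-KO, circles replicate 1 and squares replicate 2. The groups overlap in 8 of the 10 transcripts, and ENST00000458748.1 stands above the rest in every library.

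The other 7 of the 10 highest transcripts were bound in introns, in 2 forms. In the broad form, counts were scattered over a long intron with no dominant position. Intron 2 of ENST00000487694.3 held 305 and 291 windows in WT against 226 and 331 in P-KO over 1132028 nt (chr3:75986909-77118936, plus strand). Its highest single window had 15 and 16 counts (WT) against 12 and 28 (P-KO). The levels were 3508 ± 861 CPM in WT and 3503 ± 496 in P-KO (SD, n = 2), a log2 fold change of 0.01 (SE 0.33). Intron 1 of ENST00000341776.2 (chr6:15246939-15369738, plus strand) had 1360 and 1229 counts (WT) against 708 and 1372 (P-KO), in 145, 146, 130 and 239 windows. It had the highest level of all introns, and its windows merged into 435 sites, of which 26 were listed in all 4 libraries.

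In the compact form, nearly all counts lay within a short stretch. Intron 3 of ENST00000417523.1 held its windows within 87 nt (chr7:98479370-98479456, plus strand), with 1269 and 506 counts (WT) against 478 and 411 (P-KO). Its highest window had 576 and 180 counts (WT) against 245 and 140 (P-KO). WT replicate 1 stood alone at the top with 6395 CPM. WT replicate 2 (1972 CPM) lay between P-KO replicates 1 and 2 (2800 and 1515 CPM). The groups thus overlapped in CPM (4183 ± 3127 against 2158 ± 908, SD, n = 2). Intron 3 of ENST00000483437.1 (chr3:160232755-160233025, minus strand) had 684 and 1099 counts (WT) against 163 and 1198 (P-KO). Here P-KO replicate 1 was the low library, and P-KO replicate 2 was the highest of the 4.

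In most introns that could be tested, no window of a single library held a large share of the counts of the 4 libraries together. A position bound in every library is divided over several windows on this measure. The shares below therefore do not show how concentrated the counts were within each library. Of 4011 tested introns, 4 had more than 50% of their counts in a single window, and 2633 had under 10% there. The median tested intron had 24 windows over the 4 libraries, spanned 41689 nt between its outermost windows, and held 7.69% of its counts in its highest window. Windows spanned over 100 kb in 731 tested introns and under 1 kb in 153. All 10 introns of highest level overlapped between the genotypes, with log2 fold changes from -0.93 to 0.68 and none past the threshold.

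No transcript or intron differed between P-KO and WT past the adjusted threshold of 0.05 by edgeR. In the edgeR quasi-likelihood test with Benjamini-Hochberg adjustment, 0 of 4489 transcripts passed (0%), and 158 had an unadjusted p under 0.05 (3.52%), 90 of them higher in P-KO (2%) and 68 lower (1.51%). For introns 0 of 4011 passed (0%), and 139 had an unadjusted p under 0.05 (3.47%), 95 higher (2.37%) and 44 lower (1.1%). The smallest adjusted p was 0.9997 for transcripts and 0.9998 for introns. DESeq2 on the same counts called 0 transcripts and 6 introns, 2 higher and 4 lower. The groups did not overlap in CPM in 1507 tested transcripts (33.6%; 20.5% higher and 13.1% lower in P-KO) and in 1323 tested introns (33%; 17.9% and 15.1%). The median SE of a transcript's log2 fold change was 0.74, so a 2-fold difference, 1 on the log2 scale, was under 2 SE in the median transcript.

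Some transcripts were listed in one genotype only. In all, 1188 transcripts (3.47% of those listed) were in both WT libraries and in neither P-KO library, and 999 (2.92%) in both P-KO libraries and in neither WT library. The other 4524 of the 6711 transcripts listed in exactly 2 libraries were in 1 library of each genotype. The median total was 6 counts in the 1188 WT-only transcripts and 7 in the 999 P-KO-only transcripts. Only 14 and 12 of these had enough counts to be tested. A list of this kind depends on which transcript name the deposited files give to a position. Where 2 TDP43 libraries listed the same position, 93.6% to 95.2% of those positions carried the same transcript in both. In 623 of the 1188 transcripts a P-KO library had windows inside the same stretch under another transcript, and in 358 both P-KO libraries did. For the 999 transcripts those numbers were 423 and 184. Windows at the lists' minimum of 2 counts were also more frequent in the transcripts of 1 genotype only than among all windows. Windows of exactly 2 counts made up 81.5% and 80.7% of the windows in the WT-only transcripts, against 60.6% and 66.5% of all windows in the same libraries. In the P-KO-only transcripts they made up 52.8% and 73.2%, against 46.0% and 67.3%. Low totals favour such windows by themselves, so this comparison cannot show whether the names went with the count of the window.

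Both of the transcripts with the smallest p were of this kind. ENST00000531134.1 (chr12:32640377-32793588, plus strand) had 35 and 36 counts in WT, and neither P-KO library listed it. Counted under any transcript, its stretch held 59 and 73 counts (WT) against 50 and 87 (P-KO), and the groups overlapped. ENST00000583370.1 (chr17:25811026-25877503, plus strand) had 26 and 36 counts in WT, and neither P-KO library listed it, while its stretch under any transcript held 29 and 81 counts (WT) against 34 and 91 (P-KO). All of its 13 and 18 WT windows had exactly 2 counts, and the WT windows of that stretch with 3 or more counts carried another transcript. Among the 10 transcripts of smallest p, 5 had such counts under another name in the group with fewer counts. Among the 10 introns of smallest p, 7 did.

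**Figure D2:**
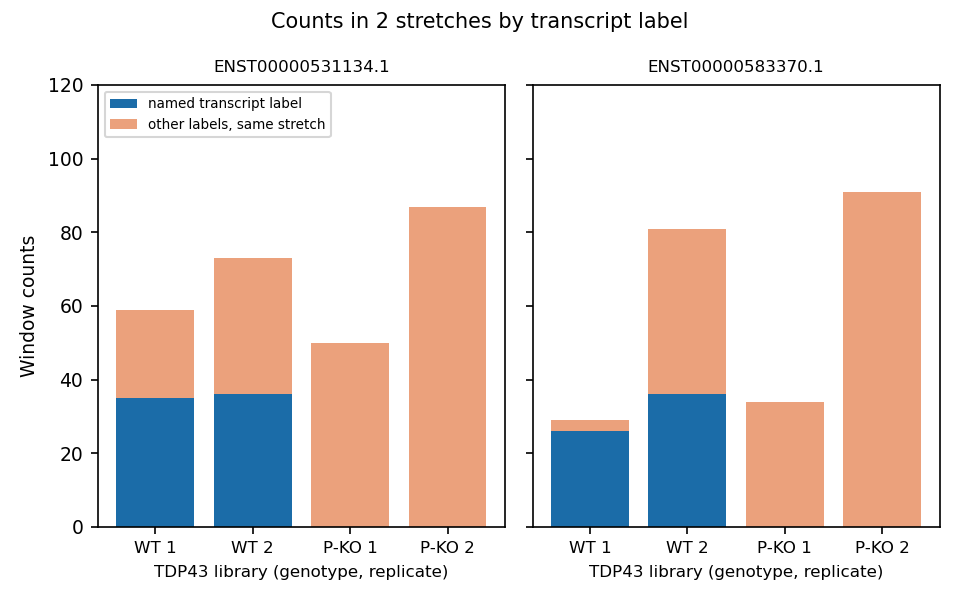
Window counts (vertical axis) in the 4 TDP43 libraries for 2 genomic stretches, divided into counts under the named transcript (blue) and under any other transcript in the same stretch (orange). The blue part is present in WT only, whereas the whole bars of WT and P-KO overlap.

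The other 3 of those 10 introns had no counts under another name. Of these, intron 1 of the transcript at chr6:158965255-158994394 (plus strand) had 71 and 81 counts (WT) against 16 and 29 (P-KO). In CPM that was 337 ± 29.8 against 100.3 ± 9.34 (SD, n = 2), a log2 fold change of -1.73 (SE 0.40, adjusted p = 0.9998 by edgeR), with no overlap of the groups. The intron of smallest p, intron 1 at chr4:113739481-113825351 (plus strand), had 6 and 6 counts (WT) against 40 and 91 (P-KO) under its own transcript. Under any transcript its stretch held 6 and 42 counts (WT) against 40 and 91 (P-KO), or 30.2 and 164 CPM against 234 and 336, so WT replicate 2 came closer to P-KO and the groups still did not overlap.

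The tests were therefore repeated on loci, which join all transcripts whose listed positions overlap on a strand, so that the name of the transcript no longer matters. The 4 TDP43 libraries covered 16804 loci, of which 6111 were listed in all 4 and held 90.3% to 92.8% of the counts of each library. In the edgeR quasi-likelihood test 0 of 4594 loci passed (0%), and 164 had an unadjusted p under 0.05 (3.57%), 82 higher (1.78%) and 82 lower (1.78%). DESeq2 called 1 locus, described next. The groups did not overlap in 1537 tested loci (33.5%). The median log2 fold change was 0.01, and the middle 50% of loci lay between -0.39 and 0.44. The median SE of a locus was 0.62. Listing in one genotype only was as frequent in both directions, with 402 loci in both WT libraries only and 402 in both P-KO libraries only.

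Loci listed in both libraries of 1 genotype only had low counts. After chr4:174252977-174253326, described next, the highest of the WT-only loci was a stretch of 23 nt without intron counts, chr1:11968228-11968250 (plus strand), with 27 and 6 counts, each in a single window. The following 3 had 24, 24 and 21 counts over both WT libraries. The highest of the P-KO-only loci was chr2:227606539-227657664, also described next. It was followed by chr15:100259072-100272454 (minus strand) with 11 and 17 counts, chr16:88882881-88922657 (minus strand) with 15 and 10, and chr20:31424182-31437797 (plus strand) with 11 and 15. The FOX2 WT libraries had 10 and 3, 22 and 36, and 4 and 9 counts in these 3 loci, in that order. Whether the RNA of these loci differed in amount between the genotypes was not tested.

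**Figure D3:**
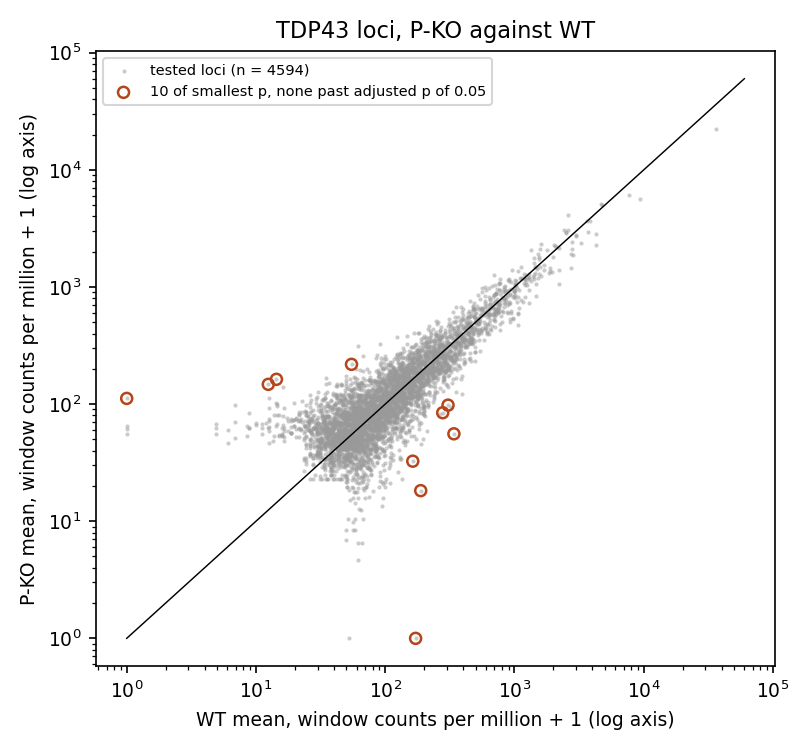
Mean TDP43 level of each of the 4594 tested loci in WT (horizontal) and P-KO (vertical), in CPM plus 1 on log axes; the line marks equal levels. The 10 loci of smallest p are circled, 4 above and 6 below the line, and none passed the adjusted threshold by edgeR.

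The 10 loci of smallest p did not pass by edgeR and are given as values. The 3 smallest p-values belonged to short loci without intron counts, all lower in P-KO. The locus chr4:174252977-174253326 (minus strand) had 50 and 23 counts in WT, in 6 and 4 windows, and no window in either P-KO library (adjusted p = 0.775 by edgeR and 0.0415 by DESeq2). FOX2 had 3 counts there in WT replicate 1 and was listed at 0 in its other libraries. The locus chr11:10327496-10328843 (plus strand) had 85 and 64 counts (WT) against 8 and 17 (P-KO), or 339 ± 127 against 54.8 ± 11.2 CPM (SD, n = 2). Its log2 fold change was -2.64 (SE 0.51, adjusted p = 0.775 by edgeR). The locus chr6:43146997-43149126 (plus strand) had 48 and 34 counts (WT) against 4 and 3 (P-KO), with a log2 fold change of -3.51 (SE 0.69), and no FOX2 library listed it. In these 3 loci every WT library was above every P-KO library, as in 15% of all tested loci. The groups did not overlap in any of the 10 loci of smallest p, against 33.5% of all tested loci without overlap in either direction. Choosing loci by p favours groups that lie apart, so this is no separate result.

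Of the other 7 loci, 4 were higher and 3 lower in P-KO, and nearly all of their counts lay in introns. The locus chr2:227606539-227657664 (minus strand) was listed at 0 in WT and had 24 and 22 counts in P-KO, all in intron 1 of its transcript. Those counts came from 6 and 10 windows, none of which repeated between the libraries, and FOX2 had 12 and 11 counts there in WT against 0 and 7 in P-KO. The locus chr1:65299616-65422494 (minus strand) had 3 and 2 counts (WT) against 28 and 35 (P-KO), a log2 fold change of 3.60 (SE 0.75). FOX2 had 89.3 and 120 CPM there in WT against 70.5 and 33.7 in P-KO, the opposite order. The locus chr1:173391334-173429488 (minus strand) had 3 and 3 counts (WT) against 37 and 29 (P-KO), a log2 fold change of 3.49 (SE 0.73). FOX2 had 193 and 186 CPM in that locus in WT against 674 and 519 in P-KO, so its P-KO libraries were also the higher ones. In these 3 loci no window overlapped a window of a second TDP43 library. The locus chr19:5922939-5977920 (minus strand) had 9 and 16 counts (WT) against 34 and 64 (P-KO), a log2 fold change of 1.96 (SE 0.49). FOX2 had 578 and 1075 CPM there in WT against 1530 and 2044 in P-KO, the same order as TDP43.

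The remaining 3 loci were lower in P-KO. The locus chr11:65590946-65623949 (minus strand) had 56 and 70 counts (WT) against 14 and 23 (P-KO), or 277 ± 6.64 against 83.4 ± 1.98 CPM (SD, n = 2), a log2 fold change of -1.77 (SE 0.44). The locus chr11:8498685-8610527 (minus strand) had 67 and 70 counts (WT) against 18 and 24 (P-KO), a log2 fold change of -1.70 (SE 0.44). FOX2 had 79, 90, 12 and 68 counts there, also lower in both P-KO libraries. The locus chr7:96269416-96338090 (minus strand) had 42 and 29 counts (WT) against 7 and 6 (P-KO), a log2 fold change of -2.43 (SE 0.66). These 3 loci and chr19:5922939-5977920 had an adjusted p of 0.997 by edgeR.

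Loci outside introns lay lower in P-KO as a class. By edgeR none of them passed, and by DESeq2 only chr4:174252977-174253326 did. The 39 tested loci without any intron count had a median log2 fold change of -0.96, and 33 of them were lower in P-KO, against 0.01 and 2267 of 4594 over all tested loci. The class was chosen after the values of single loci were seen, so it is described and not tested. The 148 loci with some but under 50% of their counts in introns had a median of -0.30, with 105 lower. The 4407 loci with 50% or more had a median of 0.03, with 2129 lower. Both P-KO libraries were below both WT libraries in 15 of the 39 loci, and both were above in 2. The corresponding shares of all tested loci were 15% and 18.5%.

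P-KO replicate 1 stood furthest from WT in this class. It was below both WT libraries in 29 of the 39 loci, and P-KO replicate 2 in 19. Together the 39 loci held 6.19% and 5.46% of the WT libraries, 2.69% of P-KO replicate 1 and 4.50% of P-KO replicate 2. Most of these sums came from ENST00000458748.1 and ENST00000534336.1, described above. The first held 3.96% and 3.24% (WT) against 1.73% and 2.73% (P-KO). The second held 1.19% and 0.605% (WT) against 0.577% and 0.518% (P-KO). The sums therefore describe mainly those transcripts and not the class. Without P-KO replicate 1 the median log2 fold change of the 39 loci was -0.53, and without P-KO replicate 2 it was -1.91. The lower median of the 39 loci was present in each, and its size rested on P-KO replicate 1. FOX2 held 0.956% and 1.03% of its counts in the 39 loci in WT against 1.53% and 1.33% in P-KO.

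**Figure D4:**
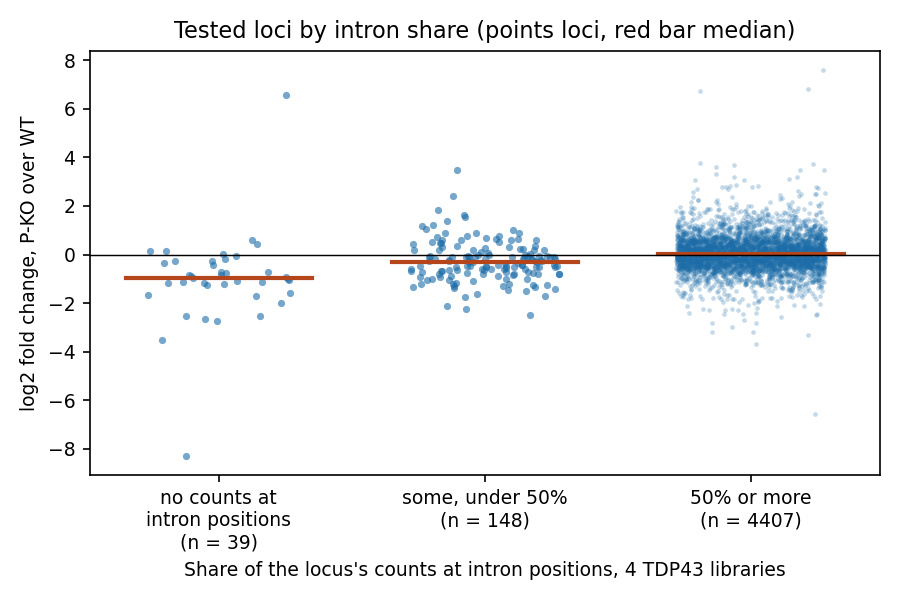
The log2 fold change of P-KO over WT (vertical) of each tested locus, grouped by the share of its TDP43 counts at intron positions; points are loci and red bars medians. The median lies at -0.96 in the 39 loci without intron counts, at -0.30 in the 148 loci with some but under 50%, and at 0.03 in the other 4407.

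The intron share of whole libraries was taken from the same window counts as these loci, so it is not a separate observation. TDP43 had 86.8% and 86.9% of its counts in introns in WT against 90.6% and 88.8% in P-KO, or 86.9% ± 0.0767 against 89.7% ± 1.27 (SD, n = 2). The difference was 2.87 percentage points with no overlap, and its exact permutation p was 0.333 (two-sided), the smallest that 2 libraries against 2 allow. FOX2 went the other way, with 90.7% and 90.3% in WT against 87.4% and 87.6% in P-KO, a difference of -3.00 points. The genotype differences of the 2 proteins were thus 5.88 points apart, with an exact permutation p of 0.0556 (two-sided, genotype permuted within protein), the smallest that these 36 arrangements allow.

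A few transcripts and the windows of higher count carried much of the TDP43 difference. The 10 transcripts with most counts outside introns held 6.27% and 5.45% of the WT libraries and 2.78% and 4.71% of the P-KO libraries. All other transcripts held 6.93% and 7.64% outside introns in WT against 6.59% and 6.46% in P-KO. Without the 10 transcripts of highest CPM the difference in intron share was 1.39 points. Counted by the number of windows instead of their counts it was 0.219 points, and the groups overlapped. Among windows of 3 or more counts the difference was 5.51 points, with 81.1% and 79.5% in WT against 88.9% and 82.7% in P-KO. P-KO replicate 1 stood furthest from WT there. Among windows of exactly 2 counts the difference was -0.445 points, the opposite direction. The FOX2 difference was -0.0807 points among windows of 3 or more counts, where its groups overlapped, and -1.33 points among windows of 2 counts. The opposite directions of the 2 proteins therefore depended on which windows were counted.

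**Figure D5:**
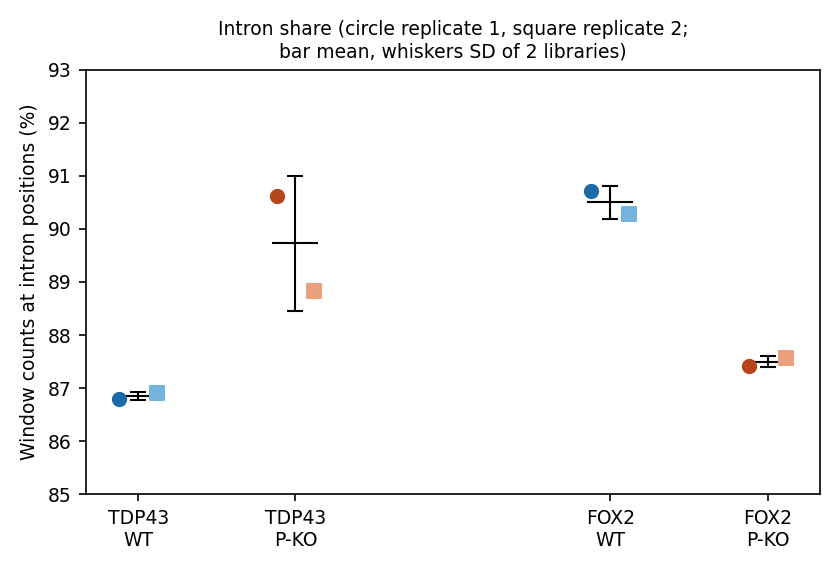
Percentage of window counts at intron positions in each TDP43 and FOX2 library (the axis starts at 85%), with the mean and SD of 2 libraries. Both TDP43 P-KO libraries lie above both TDP43 WT libraries, and both FOX2 P-KO libraries lie below both FOX2 WT libraries.

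Some of those non-intron transcripts separated the replicates more than the genotypes. ENST00000365494.1 (chr17:19091360-19091400, plus strand) had 51 and 718 counts (WT) against 3 and 626 (P-KO). ENST00000602361.1 (chr9:35657810-35657973, minus strand) had 201 and 708 counts (WT) against 21 and 716 (P-KO). These transcripts were singled out after their values were seen. Replicate 2 was several times higher than replicate 1 in both genotypes, and the genotypes overlapped. In contrast, ENST00000525239.1 (chr11:62609159-62609281, minus strand) had 634 and 582 counts (WT) against 215 and 441 (P-KO), with no overlap. ENST00000542575.2 (chr19:47278253-47285759, minus strand) had 263 and 201 counts (WT) against 78 and 187 (P-KO), which in CPM also gave no overlap.

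The test of whether the genotype effect of TDP43 differed from that of FOX2 gave no call by edgeR and calls by DESeq2. In the edgeR interaction test 0 of 6435 transcripts passed (0%), and 447 had an unadjusted p under 0.05 (6.95%). For loci 0 of 5939 passed (0%), and 434 had an unadjusted p under 0.05 (7.31%). DESeq2 gave 54 transcripts and 42 loci, all of them with the TDP43 effect below the FOX2 effect. It returned an adjusted p for only 322 transcripts and 297 loci, so these calls and their direction describe that part only. At an unadjusted p under 0.05 by edgeR, the TDP43 effect was above that of FOX2 in 189 transcripts and below in 258. Without TMM these numbers were 476 and 129, so the prevailing direction depended on the normalization. The locus of smallest p, singled out after the values were seen, was chr7:158523921-158621360 (minus strand). It had 38 and 97 TDP43 counts (WT) against 28 and 42 (P-KO). Its FOX2 counts were 258 and 487 in WT against 906 and 2695 in P-KO. These are raw counts, and FOX2 P-KO replicate 2 was the deepest of these libraries (622932 window counts). After normalization the difference of the log2 effects, TDP43 minus FOX2, was -2.93 (SE 0.62, adjusted p = 0.607 by edgeR).

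Single sites were seldom repeated between libraries, which limits what can be compared at that scale. The windows of the 4 libraries merged into 286741 sites, and 269633 of them were listed in 1 library. The 820 sites listed in all 4 (0.286%) held 5.0% to 10.0% of the counts of a library and lay in 408 loci. Introns contained 85.7% of them, against 93.9% of the sites listed in 1 library. Of 708 sites with enough counts to be tested, 0 passed by edgeR (0%), with 3 at an unadjusted p under 0.05 (0.424%), all lower in P-KO. DESeq2 also called 0 sites.

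Loci were shared within and between genotypes in similar numbers. WT replicate 1 and WT replicate 2 shared 7792 loci, and the P-KO libraries shared 7724. Between genotypes the number ranged from 7045 to 8690. The most alike pair was WT replicate 2 and P-KO replicate 2, with 7552 of the WT windows overlapping a P-KO window and 4501 sites listed in these 2 libraries and no other. The 2 WT libraries alone shared 2219 sites and the 2 P-KO libraries alone 1336. WT replicate 2 and P-KO replicate 2 were also the 2 deepest TDP43 libraries, and the part of depth in their overlap was not tested.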

How the data were processed

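The 12 deposited lists, 1 per library, were read as the authors made them: alignment was with Bowtie to GRCh37 (hg19), per the submitters' processing notes. The Bowtie version, the peak caller, and whether counts are reads or cDNAs were not found in the labels. Each deposited line holds 1 position with a transcript, an intron number where there is one, a raw whole-number count of at least 2 and a deposited p-value or q-value of at most 0.05, which was not used further. Groups and replicate numbers came from the labels.

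Positions were kept from the highest count downwards, at least 11 nt apart on a strand. Chromosome 15 from 25000001 to 26000000, chrM and chrUn_gl000220 were left out. Counts were summed per transcript and per intron, and, added after the files were seen, per locus (transcripts with overlapping listed positions, joined over the 12 libraries) and per merged site. Listed positions of the 4 TDP43 libraries give the coordinates printed. edgeR 4.0.16 in R 4.3.3 was run with filterByExpr, TMM, the quasi-likelihood F test and Benjamini-Hochberg adjustment at 0.05, on the 4 TDP43 libraries, or with the 4 FOX2 libraries for the interaction of protein and genotype. DESeq2 1.42.0 was an alternative. Shares were compared by exact permutation tests on log2 shares (scipy 1.17.1, Python 3.11.15); differences of differences in percentage points. The fits were tested on simulated data. Replicates differed by more than sampling noise (chi-square per degree of freedom 6.87 in WT and 6.98 in P-KO over transcripts), so none was counted as a duplicate. Depth of the TDP43 and FOX2 libraries is given with the results.

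The text names the 10 features of smallest p (fewer than 5 passed), the 10 of highest mean CPM, those listed in 1 genotype only and the highest windows. The members and lists were chosen with earlier results of these data known. Gene lists, cell type markers and the search for UG repeats needed gene names or an hg19 genome and were not used here.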

Additional observations from a re-analysis of the deposited data

Results flagged for a closer look

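The intron share of window counts differed in direction between the proteins: it was higher in both P-KO libraries than in both WT libraries for TDP43 and lower in both for FOX2, and the 2 genotype differences were 5.88 percentage points apart (exact permutation p = 0.0556, two-sided, the smallest these libraries allow). Counted by number of windows the distance was 1.98 points (exact permutation p = 0.111). Among windows of 3 or more counts the FOX2 difference was -0.0807 points with overlapping groups (p = 0.167 for the distance, exact permutation), and among windows of 2 counts the differences were -0.445 points for TDP43, whose groups overlapped, and -1.33 points for FOX2. P-KO replicate 1 of TDP43 had the highest share, 90.6%, and the smallest part of its counts in the left-out regions, 1.09%.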

How the results depend on the processing

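Counts of called transcripts, introns, loci and sites stayed at 0 by edgeR without TMM, with the robust option, with a minimum of 20 counts in 2 libraries, with all 12 libraries in one fit, with every listed position, with positions 21 nt apart and by number of windows, where each was run. They ranged from 0 to 0 when any single library was left out, in the interaction tests too. With the replicate block the counts were also 0. With only 2 pairs (correlation of same-numbered deviations 0.106 over transcripts, 0.120 over loci) the numbers were not taken as pairing. Some values still followed the replicate number. The block moved edgeR's common coefficient of variation from 1.34 to 0.841 over sites, 0.417 to 0.391 over loci and 0.547 to 0.531 over transcripts. Whether same-numbered libraries shared a batch was not tested. Without a filter on low counts edgeR called 55 transcripts (13 higher, 42 lower), 58 introns (14 and 44) and 5 loci (2 and 3), and in the interaction 9 transcripts and 7 loci; these calls include features listed at 0 in 1 genotype, and this setting tests more features. DESeq2 called 6 introns and 1 locus, and in the interaction 54 transcripts and 42 loci. With the left-out regions kept, 2 transcripts and 2 loci passed, all lower in P-KO. Both loci lay in the chromosome 15 stretch (25106094 to 25266169 with 1896, 1766, 85 and 101 counts, and 25267184 to 25417010 with 823, 815, 27 and 33). Without TMM the median of the interaction was 0.71 over transcripts, against 0.08. The difference in intron share was -0.445 points among windows of 2 counts, the one reversal, from 1.98 to 3.77 points with 1 library left out, 7.39 with every listed position, 4.09 with all regions kept, where the groups overlapped, and 2.34 with positions 21 nt apart; the cause was not tested. Over the 66 named features, 51 of 992 alternative values had the opposite sign; those of smallest p were chosen with groups that do not overlap, so their sign is no sign of stability. The search for UG repeats, planned with 2 alternatives, was not run. Counts near the lists' minimum of 2 limit what low transcripts can show.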

Other observations

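The share of TDP43 window counts per chromosome differed little between genotypes. Over 23 chromosomes the log2 ratio of the P-KO mean share to the WT mean share ran from -0.15 on chromosome 1, which holds the stretch of highest level, to 0.10 on chromosome 9. Both P-KO libraries were above both WT libraries on 5 chromosomes and below on 3. Replicate 2 was above replicate 1 in both genotypes on 8 chromosomes and below it in both on 9.

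Windows lay closer together in some libraries than in others. A second window lay within 50 nt for 15.6% and 12.3% of the windows in the TDP43 WT libraries and for 8.50% and 12.2% in the P-KO libraries. For FOX2 the shares were 10.4% and 12.8% in WT against 23.5% and 37.3% in P-KO. The FOX2 libraries also differed in window counts. Windows of 2 counts made up 62.0% and 64.1% in WT against 42.3% and 16.3% in P-KO, and P-KO replicate 2 was the deepest. The part of depth in the spacing was not tested.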
